A study of Homo sapiens with 6 samples.

Results

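NeuroD1 sites that were listed in H524 cells but not in H82 cells, that overlapped no listed H3K4me3 region of either line and that nevertheless lay close to an H3K4me3 region of H524 made up 6532 of the 20593 distinct NeuroD1 regions of H524 (31.7%, 95% interval 31.1 to 32.4). They were chosen by the authors' peak lists alone. A region qualified when it shared no base with an H82 NeuroD1 region or with an H3K4me3 region of H524 or H82, and when its edge lay at most 50 kb from the edge of the nearest H524 H3K4me3 region. These sites are called promoter-near sites here, after the mark, and none of the H3K4me3 regions was shown to be a promoter. The calls in all 4 peak lists and the distance to the mark thus fixed the class, and these values are given only as a description.

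H524 and H82 are established human small cell lung cancer cell lines, and both were grown untreated in RPMI medium with serum. Chromatin immunoprecipitation with antibodies against NeuroD1 (from Cell signaling) and H3K4me3 (from Abcam) gave 4 groups, H524 NeuroD1, H524 H3K4me3, H82 NeuroD1 and H82 H3K4me3, of 1 library each. The input library of each line was not analysed here. With 1 library per antibody and line there was no replicate error to set a difference against and no test was possible. Shares carry exact Clopper-Pearson 95% intervals and differences between shares carry Newcombe 95% intervals, which cover counting error only. Neighbouring regions are not independent, so the true uncertainty is larger.

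The basic helix-loop-helix factor NeuroD1 drives neuronal and endocrine differentiation, binds E-box motifs as a heterodimer with E-proteins, and marks one of the neuroendocrine classes of small cell lung cancer. H3K4me3 is a histone mark concentrated around the start sites of active genes. Binding of such factors outside the mark but near it is commonly found at distal elements such as enhancers, whereas regions at the mark are mostly promoters. No enhancer mark was analysed here, so none of the regions below was classed as an enhancer. Regions are named by their hg19 position alone, since no sequence or gene annotation of that build was used here.

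The rest of the H524 list gave the points of comparison. It held 8622 regions of H524 alone that were unmarked and farther than 50 kb from the mark (distant sites), 3384 regions of H524 alone that overlapped H3K4me3 of at least 1 line, 1230 regions shared with H82 and unmarked, and 825 regions shared with H82 and marked. Promoter-near sites were thus 35.2% (34.5 to 35.9) of the 18538 regions of H524 alone and 43.1% (42.3 to 43.9) of the 15154 that were also unmarked. The same rule with the lines exchanged found 680 such sites in H82, 17.6% (16.5 to 18.9) of its 3854 NeuroD1 regions and 51.2% (48.5 to 53.9) of its unmarked regions of H82 alone. The H524 NeuroD1 list was 5.34-fold longer than the H82 list, and the depth of the libraries is unknown, so a site without NeuroD1 in H82 and a site below detection there cannot be told apart. For the same reason, unmarked means without a listed H3K4me3 region, whether the mark was absent or below detection. The number of promoter-near sites was 4229 with a limit of 25 kb, 2871 with each list kept at or above its median score, and 1254 with both NeuroD1 lists limited to the length of the shorter.

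In size and score the promoter-near sites lay near the middle of the H524 list. Their median width was 456 bp, with the middle 50% between 333 and 677 bp and extremes of 254 and 4863 bp, against a median of 455 bp at distant sites. The median score, a −log10 q-value as read from the values, was 4.11, and the middle 50% lay between 2.48 and 7.11. Ranked inside the H524 list, the median site stood at percentile 50.8, against 48.4 for distant sites, 41.7 for sites of H524 alone at the mark and 75.8 for unmarked sites shared with H82. By number, 679 of the 6532 (10.4%, 9.67 to 11.2) were in the highest-scoring 10% of the list. Several summits were recorded in 11.2% (10.4 to 12.0) of promoter-near sites and in 10.7% (10.1 to 11.4) of distant sites, a difference of 0.436 points with an interval from −0.564 to 1.45 that includes 0. Unmarked sites shared with H82 had several summits in 25.5% (23.1 to 28.1). Together the promoter-near sites covered 3668 kb.

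Counted per kb of distance to the nearest mark, promoter-near sites were most numerous beside it. These counts take no account of how much of the genome lies at each distance. The rule also uses this distance, so they are a description only. The median distance to the nearest H524 H3K4me3 region was 16.8 kb, with the middle 50% between 6.0 and 31.3 kb. Within 1 kb of the mark there were 566 sites (8.67%, 7.99 to 9.37), and from 1 to 2 kb there were 313. The density was 191 sites per kb of distance between 2 and 5 kb, 138 between 10 and 20 kb and 80.9 between 40 and 50 kb. Of the 566 sites in the first kb, 120 (1.84% of all promoter-near sites) lay within 100 bp of the mark. Unmarked sites shared with H82 that fell inside the same 50 kb numbered 610, with a median of 15.9 kb and 13.0% (10.4 to 15.9) inside the first kb. Against the 16.8 kb and 8.67% of the H524 sites, the 680 H82 sites of the exchanged rule lay closer to their mark, with a median of 11.1 kb and 17.6% (14.9 to 20.7) inside the first kb.

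**Figure D1:**
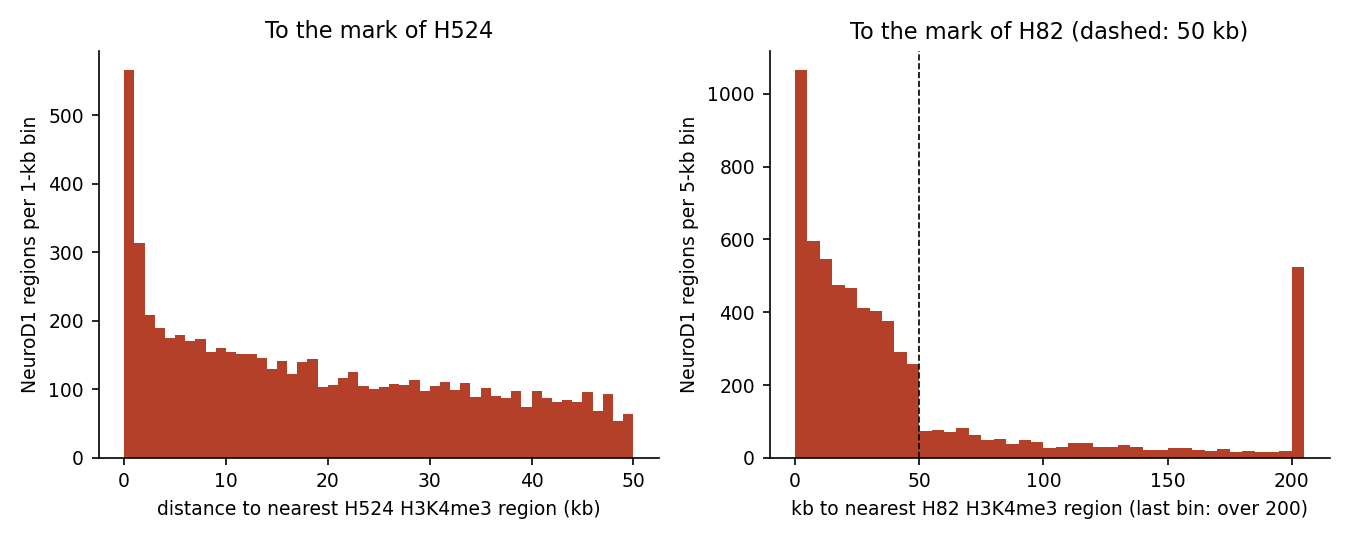
Distance from each of the 6532 promoter-near NeuroD1 sites of H524 to the nearest H3K4me3 region of H524 (left, bins of 1 kb) and of H82 (right, bins of 5 kb, with all sites beyond the axis in the last bin). The first kb from the H524 mark holds 566 sites, and the dashed line at 50 kb on the right separates the 4890 sites with an H82 mark in reach from the 1642 without one.

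Sites beside the mark were narrower and lower in score than those farther out. In the first kb the median width was 369.5 bp and the median percentile 41.3, and from 1 to 2 kb they were 434 bp and percentile 42.1. Between 2 and 50 kb the median width stayed between 456 and 484 bp and the median percentile between 48.4 and 57.3, the highest at 20 to 30 kb. A wide region beside a mark is more likely to share a base with it and so to fall outside the class. The narrower widths there, and scores that go with width, may thus follow in part from the rule. This part was not tested. Over all 6532 sites score and distance were only weakly related (Spearman rho of 0.0553 across sites of 1 library), and score and width more closely (0.472). The sites on either side of the limit are given as a description. The 3 sites just inside lay at 49.977, 49.965 and 49.940 kb and had ranks 6199, 11434 and 15269 in the H524 list. Just outside, the 3 nearest lay at 50.011, 50.037 and 50.077 kb with ranks 4624, 6094 and 3430.

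The H3K4me3 regions beside these sites were slightly wider and higher in score than the other H3K4me3 regions of H524. Of the 18595 H524 H3K4me3 regions, 4040 (21.7%) were the nearest mark of at least 1 promoter-near site. Their median width was 567.5 bp, against 514 bp for the 14555 others, and their median score percentile was 53.7, against 47.0. Most of them, 2644 (65.4%), were nearest to a single site, 841 to 2 sites and 493 to between 3 and 5. The 62 marks nearest to 6 or more sites accounted for 464 sites (7.10%). A site had a median of 2 H524 marks within 50 kb, and 45.3% (44.1 to 46.6) had only 1. Marks within 50 kb on both sides were found for 1608 sites (24.6%, 23.6 to 25.7).

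The nearest mark itself held NeuroD1 more often for promoter-near than for distant sites. The nearest H524 H3K4me3 region overlapped an H524 NeuroD1 region for 1655 promoter-near sites (25.3%, 24.3 to 26.4), against 20.7% (19.8 to 21.6) of distant sites, a difference of 4.66 points (3.30 to 6.02). Over all 16384 unmarked H524 NeuroD1 regions the share was 22.7%. Counted per mark rather than per site, 23.3% (22.0 to 24.6) of the 4040 marks with a promoter-near site held NeuroD1 of H524, against 16.6% (16.0 to 17.2) of the other H524 marks. The excess of promoter-near over distant sites was not seen on every chromosome. It was positive on 14 of 23 chromosomes, with the interval above 0 on 9, and negative on 9, with the interval below 0 on 1. Marks that held NeuroD1 were wider, with a median of 810 bp over the 1655 sites, against 506 bp over the 4877 others, and the part of mark width in the difference was not tested. With both NeuroD1 lists limited to the length of the shorter, 6.70% of the remaining promoter-near sites had a nearest mark with NeuroD1.

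Promoter-near sites had another NeuroD1 region of H524 within the stitching distance more often than the other classes did. A further H524 NeuroD1 region lay within this distance, the span commonly used to join binding sites into clusters and here 0.25 times the 50 kb limit, for 3599 sites (55.1%, 53.9 to 56.3), against 46.5% of all H524 NeuroD1 regions. The share was 41.3% (40.2 to 42.3) at distant sites, 44.2% (42.6 to 45.9) at sites of H524 alone on the mark, 47.2% (44.4 to 50.1) at unmarked and 40.4% (37.0 to 43.8) at marked sites shared with H82. The differences to the first 3 of these classes were 13.8 points (12.2 to 15.4), 10.9 points (8.79 to 12.9) and 7.86 points (4.82 to 10.9). Unmarked shared sites have no distance limit (median 50.8 kb to an H524 mark), so the last difference also sets unlike distances against each other. Within 1 kb, a neighbour was found for 17.6% (16.7 to 18.6) of promoter-near sites, against 18.1% (16.8 to 19.5) of sites of H524 alone on the mark (difference −0.509 points, −2.12 to 1.07) and 12.8% (12.1 to 13.5) of distant sites. The median distance to the next region was 9.67 kb at promoter-near and 21.2 kb at distant sites. Within chromosomes the share exceeded that of distant sites on 22 of 23, with the interval above 0 on 18. The exception was chromosome 19, with 58.6% of 290 promoter-near and 67.8% of 59 distant sites (difference −9.18 points, −21.2 to 4.66). The H82 sites of the exchanged rule differed in the same direction, with 26.9% (23.6 to 30.4), against 11.9% (9.49 to 14.6) of the distant H82 sites. With the NeuroD1 lists at equal length, 24.2% of the remaining H524 promoter-near sites had such a neighbour.

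**Figure D2:**
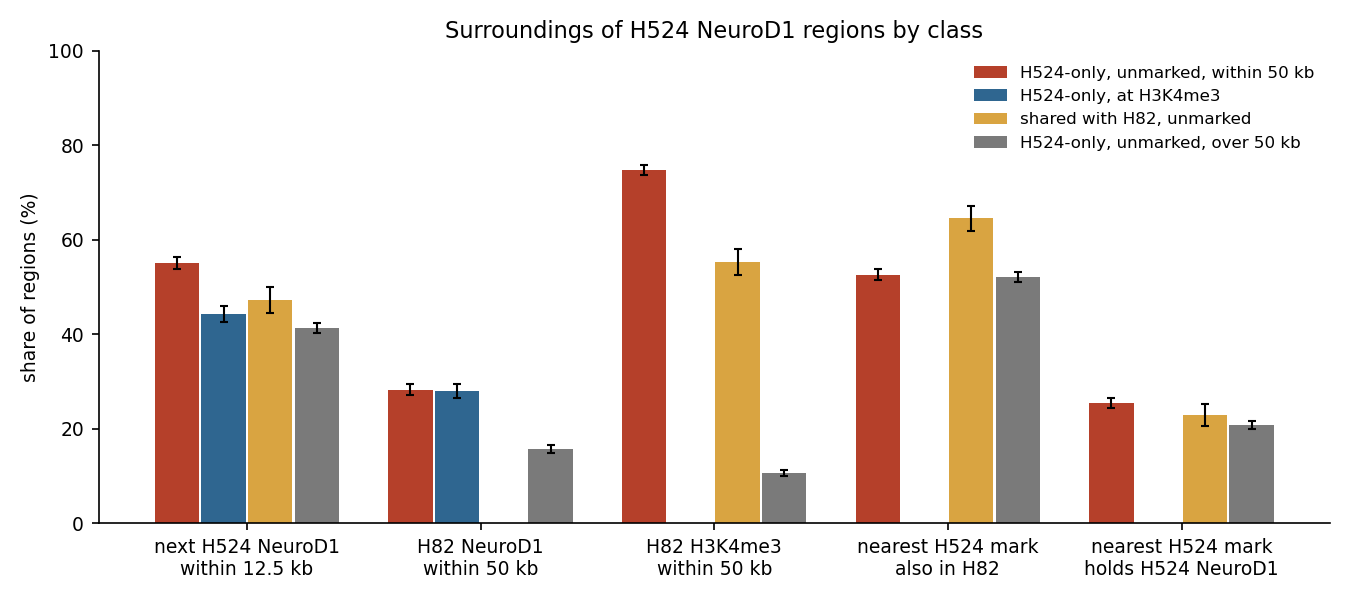
Share of H524 NeuroD1 regions with each feature in their surroundings, by class, with exact 95% intervals for counting error as bars. Promoter-near sites (leftmost in each group) had a further H524 NeuroD1 region within the stitching distance in 55.1%, against 41.3% of distant sites. The nearest mark was also found in H82 in 52.6% and 52.1%. The share of shared sites with H82 NeuroD1 in reach, which the class rule fixes, is not drawn. Shares on the H3K4me3 surroundings of sites at the mark, which the rule affects but does not fix, are also left out.

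Most of these close neighbours were promoter-near sites as well. Of the 3599 sites with a neighbour within the stitching distance, the nearest region was another promoter-near site for 2670 (74.2%, 72.7 to 75.6) and a site of H524 alone at the mark for 587 (16.3%, 15.1 to 17.6). An unmarked shared site was nearest for 174 (4.83%) and a marked shared site for 99 (2.75%). Such neighbours share much of the distance that defines the class, so a high share of the same class follows in part from the rule. The neighbour share varied with distance from the mark. It was 49.1% (44.9 to 53.3) in the first kb, between 69.4% and 70.3% from 1 to 10 kb, 53.5% (50.8 to 56.2) from 10 to 20 kb and between 47.3% and 50.1% farther out. A region on the mark was the nearest neighbour within the stitching distance for 29.2% of sites in the first kb, 33.5% at 1 to 2 kb, 5.21% at 10 to 20 kb and 0.742% at 40 to 50 kb. Counting only other promoter-near sites as neighbours, the share was 30.9% (27.1 to 34.9) in the first kb, between 49.2% and 50.9% from 1 to 10 kb and 41.4% (38.0 to 44.9) at 40 to 50 kb.

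**Figure D3:**
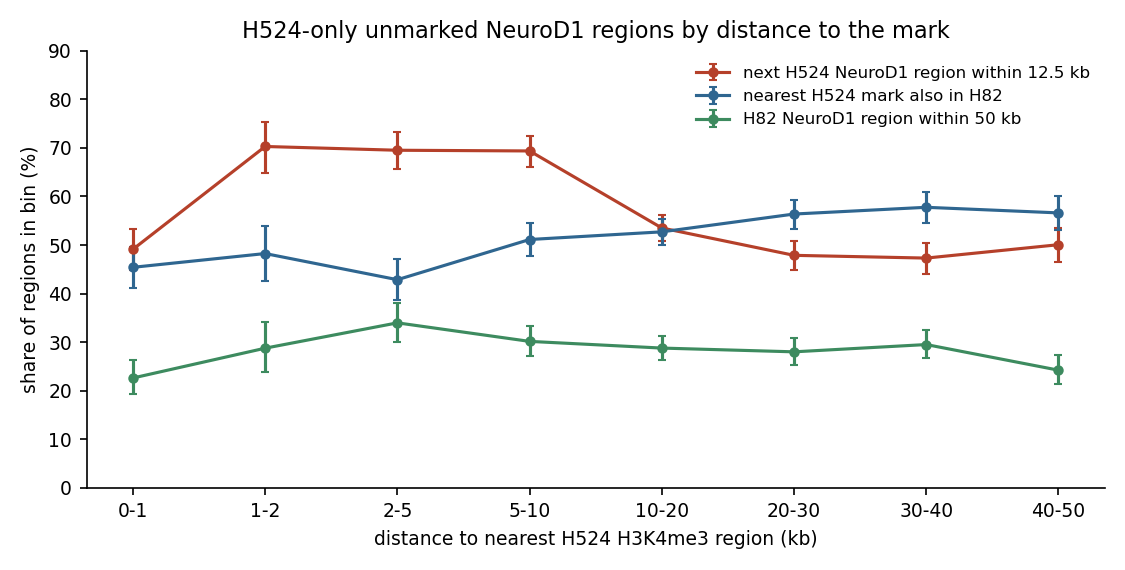
Features of the promoter-near sites by distance to the nearest H524 H3K4me3 region, in 8 distance bins, as the share of sites in the bin with exact 95% intervals for counting error. The share with a further H524 NeuroD1 region within the stitching distance peaks between 1 and 10 kb at 69.4% to 70.3%, and the share whose nearest mark is also found in H82 is 45.4% in the first bin, 42.9% in the third and 56.6% in the last. The class rule, which drops sites that overlap an H82 mark, can lower the share found in H82 close to the mark.

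Joined at the stitching distance, the 6532 sites formed 4744 separate groups. Singles made up 3598 of these, and 377 groups of 3 or more held 1396 sites (21.4%). The longest runs had 9 to 11 sites. On chromosome 12 a run of 11 sites spanned 3321962 to 3361976 (40.015 kb), with a highest score of 19.3, and contained no H3K4me3 region of either line and no H82 NeuroD1 region. A run of 10 sites at 91835545 to 91861614 on chromosome 14 likewise had no other region inside it and reached a score of 28.9. Chromosome 17 had 10 sites between 43357098 and 43404290, with 1 H524 mark, 2 H82 marks and 1 additional H524 NeuroD1 region inside the run. The 9 sites from 7892345 to 7912849 on chromosome 4 enclosed 3 H524 marks and no H82 region of either kind. A run of 9 sites on chromosome 2, from 182478196 to 182520371, enclosed other binding, with 12 H524 and 4 H82 NeuroD1 regions, 3 H524 marks and 1 H82 mark inside it.

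A few H524 marks gathered many promoter-near sites. The highest number, 18 sites, surrounded the H3K4me3 region from 20433343 to 20433649 on chromosome 20, which was 307 bp wide and weak, with a score of 2.92 (percentile 36.2). A second mark beside it, from 20434026 to 20434446, scored 1.45 and also had 18 sites in reach, over the same span. In this neighbourhood H524 had 20 NeuroD1 regions within 50 kb, of which 18 were promoter-near sites, while H82 had 1 NeuroD1 region and no H3K4me3 region. The 18 sites spanned 91.7 kb, from 20387577 to 20479323, with 6 below and 12 above the mark. Their scores ran from 1.49 to 16.9 with a median of 4.14. The strongest, from 20435582 to 20436328, was 747 bp wide, had rank 937 in the H524 list and stood 1.14 kb from the second mark. The single H82 NeuroD1 region lay 0.626 kb from the site at 20390081 to 20390864, so this site was adjacent to H82 binding without sharing a base with it.

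Next came chromosome 15 with 14 sites around the marks at 68870625 to 68871243 (score 4.66) and 68871766 to 68872113 (score 2.47). Both marks were also found in H82 and both held NeuroD1 of H524. Here H524 had 17 NeuroD1 regions within 50 kb, and H82 had 1 NeuroD1 region and 4 H3K4me3 regions. The strongest of the 14 scored 25.5 and had rank 336. On chromosome 16, the mark from 85206092 to 85206569 (score 5.79) had 13 sites in reach, 7 below and 6 above, spread over 94.2 kb, with scores between 1.46 and 16.3. It overlapped H3K4me3 of H82, and no H82 NeuroD1 region lay within 50 kb.

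**Figure D4:**
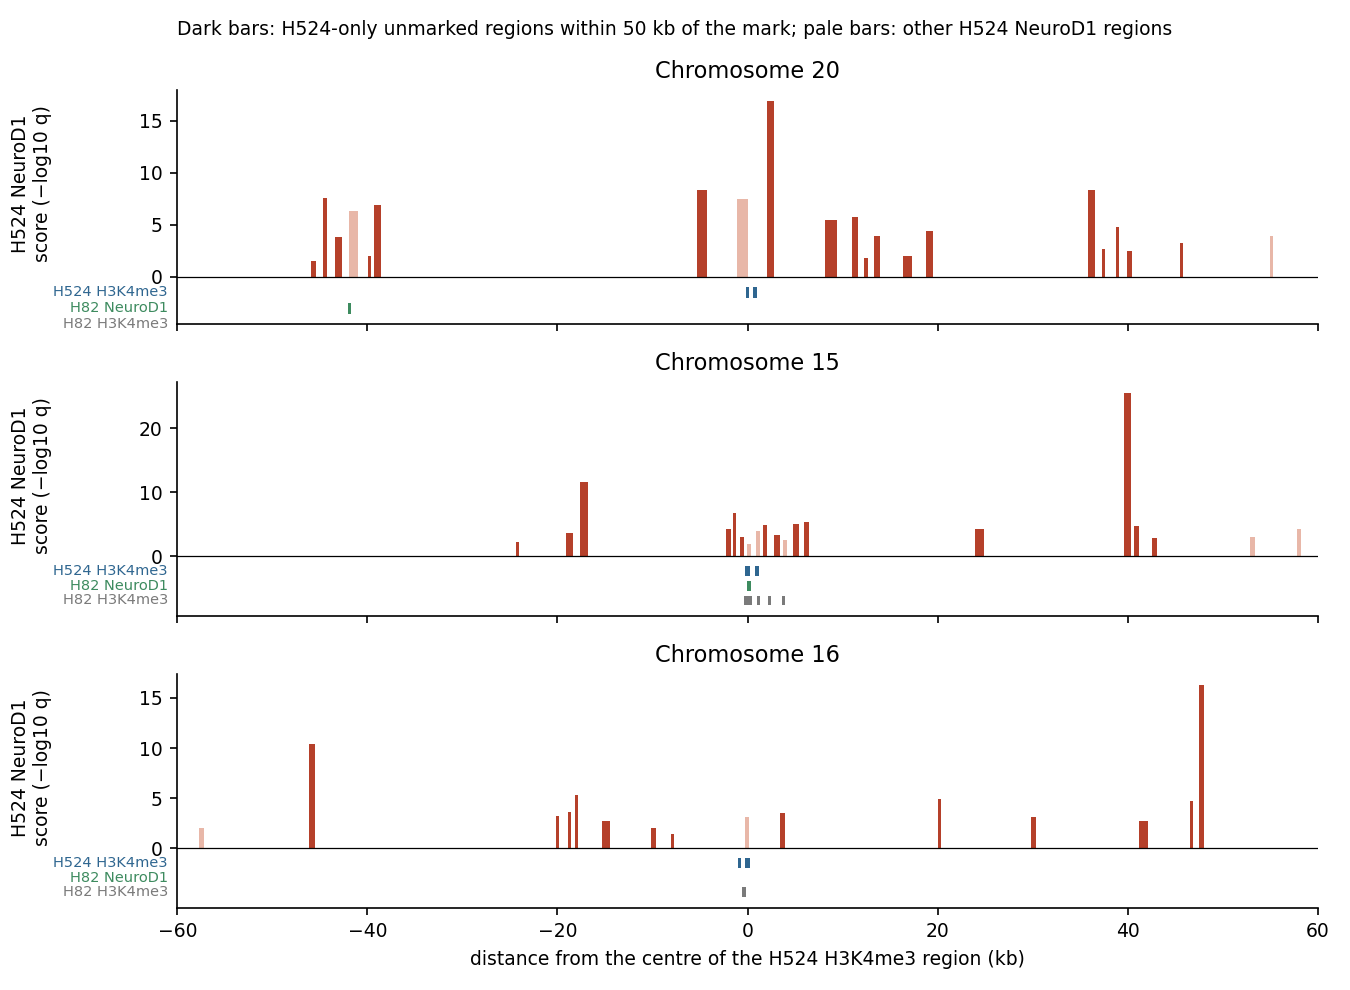
H524 NeuroD1 regions around the 3 loci where an H524 H3K4me3 region had the most promoter-near sites within 50 kb (18 on chromosome 20, 14 on chromosome 15, 13 on chromosome 16), drawn by distance in kb from the centre of that mark. Bar height is the authors' score as read on a −log10 q scale, dark bars are promoter-near sites and pale bars other H524 NeuroD1 regions; the rows under each axis show H524 H3K4me3, H82 NeuroD1 and H82 H3K4me3 regions, and the chromosome 20 locus has none of the last.

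Further marks with 13 or 12 sites, named after their values were seen, included 2 loci with no H82 region of either kind in reach. The mark from 78922233 to 78922553 on chromosome 3 had 13 sites within 50 kb, with scores from 1.44 to 10.8 and a median of 2.94, together with 3 other H524 marks. On chromosome 8, the mark from 127424908 to 127426457 (score 8.66, percentile 91.2) had 12 sites in reach with a median score of 12.0 and a highest score of 81.5. A mark on chromosome 22 from 42763582 to 42764561, absent in H82, had 13 sites and 1 H82 NeuroD1 region within 50 kb. On chromosome 12 the 2032 bp mark from 3309893 to 3311924, also found in H82, had 12 sites and 4 H82 NeuroD1 regions, and 11 of its 12 sites lay above it. Those 11 form the run from 3321962 to 3361976 described earlier.

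H82 data were available for the same places, where its NeuroD1 list held no overlapping region. The nearest H524 mark was also found in H82 for 3438 promoter-near sites (52.6%, 51.4 to 53.9), close to the 52.1% (51.1 to 53.2) of distant sites. The difference was 0.522 points with an interval from −1.08 to 2.13. Over all unmarked H524 NeuroD1 regions the share was 53.3%, and over all H524 H3K4me3 regions it was 52.9% (52.2 to 53.7). Unmarked sites shared with H82 had a nearest mark found in both lines more often, in 64.6% (61.8 to 67.2), and promoter-near minus shared sites gave −11.9 points (−14.8 to −8.95). The shared class has no distance limit, and its median distance to an H524 mark was 50.8 kb. Sharing and distance therefore cannot be told apart in this difference. Among promoter-near sites the share was lower close to the mark, at 45.4% (41.2 to 49.6) in the first kb and 42.9% (38.8 to 47.0) at 2 to 5 kb, against 56.6% (53.1 to 60.1) at 40 to 50 kb. A site beside a mark found in both lines leaves the class when the overlapping H82 region reaches it. The lower share close to the mark may thus follow in part from the rule, which was not tested. Marks found in both lines were wider (median 764.5 bp, against 414 bp for the marks in H524 alone beside these sites). Taken on the H82 side, the exchanged rule gave 37.6% (34.0 to 41.4) of near and 45.7% (41.8 to 49.6) of distant sites with a nearest H82 mark found in H524.

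An H82 mark lay within 50 kb of 4890 promoter-near sites (74.9%, 73.8 to 75.9), against 10.6% (9.99 to 11.3) of distant sites and 39.6% of all unmarked H524 NeuroD1 regions. This gap is partly inherited from the rule, because a mark found in both lines brings an H82 mark with it. It did so for 99.9% of the sites whose nearest mark was in both lines. The nearest mark was in H524 alone for the other 3094 sites. Their median distance to an H82 mark was 55.9 kb, and 47.0% (45.2 to 48.8) had one within 50 kb. In total 2652 sites (40.6%, 39.4 to 41.8) had a shorter edge distance to an H82 mark than to any H524 mark. Where the nearest mark was in both lines, a slightly closer edge of the overlapping H82 region was enough for this. The number is thus not a count of sites beside a separate, closer H82 mark. Within 1 kb of an H82 mark lay 432 sites (6.61%). At 1642 sites (25.1%, 24.1 to 26.2) no H82 mark was in reach.

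H82 NeuroD1 regions were found near the promoter-near sites although none overlapped them. An H82 NeuroD1 region lay within 50 kb of 1848 sites (28.3%, 27.2 to 29.4), against 15.7% (14.9 to 16.4) of distant sites, a difference of 12.6 points (11.3 to 14.0). Over all 18538 regions of H524 alone the share was 22.4%. Sites of H524 alone at the mark had 28.0% (26.5 to 29.6), 0.277 points from the promoter-near sites with an interval of −1.60 to 2.13. Promoter-near sites exceeded distant sites on 22 of 23 chromosomes, with the interval above 0 on 16, and chromosome 18 was the exception (7.07% against 12.1%). The share was 34.9% (33.3 to 36.5) where the nearest mark was in both lines and 21.0% (19.6 to 22.5) where it was in H524 alone. It was 38.2% (35.8 to 40.6) where that mark held NeuroD1 of H524, against 24.9% (23.7 to 26.2) where it did not. Within the stitching distance the share was 11.2% (10.4 to 12.0), against 6.45% (5.94 to 6.99) at distant sites, and 110 sites (1.68%) lay within 1 kb of an H82 NeuroD1 region. Neither an H82 NeuroD1 nor an H82 H3K4me3 region was within 50 kb of 1456 sites (22.3%, 21.3 to 23.3), against 77.9% (77.0 to 78.8) of distant sites, a share that the distance rule again affects.

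The surroundings of promoter-near sites varied little with their score, apart from the highest-scoring sites. With the sites divided by score into 10 classes of 653 or 654 sites, the share with an H82 mark within 50 kb lay between 72.9% and 78.1%. The share whose nearest mark was also in H82 was 49.2% (45.3 to 53.1) in the highest class and 51.9% (48.0 to 55.8) in the lowest, and 56.7% in the class with the highest share. A neighbouring H524 NeuroD1 region within the stitching distance was found for 61.8% (57.9 to 65.5) of the highest class, with 51.4% to 57.6% in the other 9. The highest class was also wider, at a median of 805.5 bp, against 344 bp in the lowest. An H82 NeuroD1 region was within 50 kb for 32.7% (29.1 to 36.5) of the highest class and for 25.4% to 29.9% of the others.

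Most of the highest scores belonged to 1 stretch of chromosome 8. Between positions 127029837 and 127484587 there were 31 promoter-near sites with a median percentile of 94.1, against 53.2 for all 250 on the chromosome, and 7 of the 10 highest-scoring sites of the class were among them. Input coverage and copy number of this stretch were not analysed here, so extra copies of the DNA in H524 and stronger binding cannot be told apart in these scores. Its strongest site, at 127189111 to 127193099, scored 498, ranked 3 in the H524 list and had 7 summits over 3989 bp. It lay 11.028 kb from an H524 mark of 426 bp at 127177658 to 127178083, which was not found in H82 and held NeuroD1 of H524. The next, at 127094675 to 127097965, scored 241 (rank 7) and lay 8.53 kb from an H524 mark but 1.57 kb from an H82 mark. The third, at 127173824 to 127176415, scored 155 (rank 8) and was 1.24 kb from the same mark as the first. The 2 further sites with 7 summits on this chromosome, at 127142828 to 127146211 and 127178875 to 127182334, scored 92.9 and 83.0. The nearest H82 NeuroD1 region was 115 to 177 kb away from these 5 sites. The remaining site with 7 summits was on chromosome 15 from 31587975 to 31592199, was 4225 bp wide and scored only 14.3, and it lay 1.181 kb from an H82 NeuroD1 region.

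Outside chromosome 8, the 10 highest-scoring sites were spread over 7 chromosomes and had ranks 20 to 72 in the H524 list. They differed in what H82 showed nearby. The first, from 3655648 to 3656541 on chromosome 19, scored 86.1 and was 28.9 kb from a mark found in both lines and 28.5 kb from an H82 NeuroD1 region. A site on chromosome 16 at 70529335 to 70530163 (score 52.7) was placed alike, 26.5 kb from a mark in both lines and 27.4 kb from H82 NeuroD1. On chromosome 17, the sites from 72337634 to 72340226 (score 85.4, 3 summits) and 72333563 to 72334907 (score 50.9, 2 summits) shared the nearest mark, at 72322356 to 72322780. That mark was in H524 alone and held NeuroD1 of H524. The nearest H82 mark was 110 and 115 kb away, but H82 NeuroD1 regions lay 8.19 and 4.12 kb from these sites.

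Chromosome 4 showed a different picture, with a site at 1602648 to 1603480 (score 58.3) that was 21.0 kb from a weak mark of H524 alone, 81.9 kb from an H82 mark and 1266 kb from H82 NeuroD1. The second site of chromosome 16, at 89055610 to 89056414 (score 53.9), lay near the limit, 48.2 kb from a mark of H524 alone that held NeuroD1, with H82 NeuroD1 255 kb away. On chromosome 19, the site from 41047881 to 41049321 (score 56.9) was 10.6 kb from a mark of H524 alone and nearer, at 5.55 kb, to an H82 mark. The site on chromosome 6 from 33711731 to 33713210 (score 51.9) had a weak mark in both lines at 41.5 kb and H82 NeuroD1 at 14.3 kb. On chromosome 13, a 3533 bp site from 27539891 to 27543423 with 3 summits (score 45.2) lay 37.4 kb from a mark of H524 alone that held NeuroD1 and 15.7 kb from H82 NeuroD1. The site of chromosome 14 from 96556636 to 96557979 (score 45.0) was 49.7 kb from a strong mark of H524 alone (1646 bp, rank 973 of the H524 H3K4me3 list). Its nearest H82 mark was 213 kb away and the nearest H82 NeuroD1 region 320 kb. The nearest H524 mark of these 10 sites was in H524 alone for 7 and in both lines for 3. Over all promoter-near sites it was in H524 alone for 47.4%, and 10 sites are too few to set against that share.

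At the other end of the range, the 3 sites closest to a mark abutted it without sharing a base. Chromosome 4 held one at 1714072 to 1714449 (score 6.74), chromosome 15 one at 41245175 to 41245700 (score 3.52) and chromosome 11 one at 120195935 to 120196255 (score 2.68). None of the 3 marks was found in H82, and the nearest H82 mark was 3.36, 11.2 and 9.47 kb away. Of all sites in the first kb, 45.4% had a nearest mark found in H82. The rule also affects these 3, since an H82 region reaching past the abutting edge would take the site out of the class.

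Chromosomes differed widely in how many of their unmarked sites of H524 alone were promoter-near. Chromosome 19 led with 83.1% (78.7 to 86.9), followed by chromosome 17 with 65.3% (61.9 to 68.5) and chromosome 20 with 56.5% (52.1 to 60.8). The lowest shares were 22.7% (15.5 to 31.3) for chromosome 10, 29.6% (25.2 to 34.3) for chromosome 13 and 30.1% (25.8 to 34.8) for chromosome 4. The share went with the density of H524 H3K4me3 regions, which was 32.7 per Mb on chromosome 19, 14.2 on chromosome 17 and 1.07 on chromosome 10. The Spearman rho across the 23 chromosomes was 0.857, and 0.836 without chromosome 19. A denser mark shortens the distance to it, so this relation is partly built into the rule, and chromosomes are not replicates. Chromosome 1 contributed the most sites, 574, followed by chromosome 17 with 532 and chromosome 3 with 484, and chromosome 10 the fewest, 27. Few regions of any class were listed on chromosome 10, with 141 NeuroD1 and 144 H3K4me3 regions of H524, against 945 and 805 on chromosome 11.

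**Figure D5:**
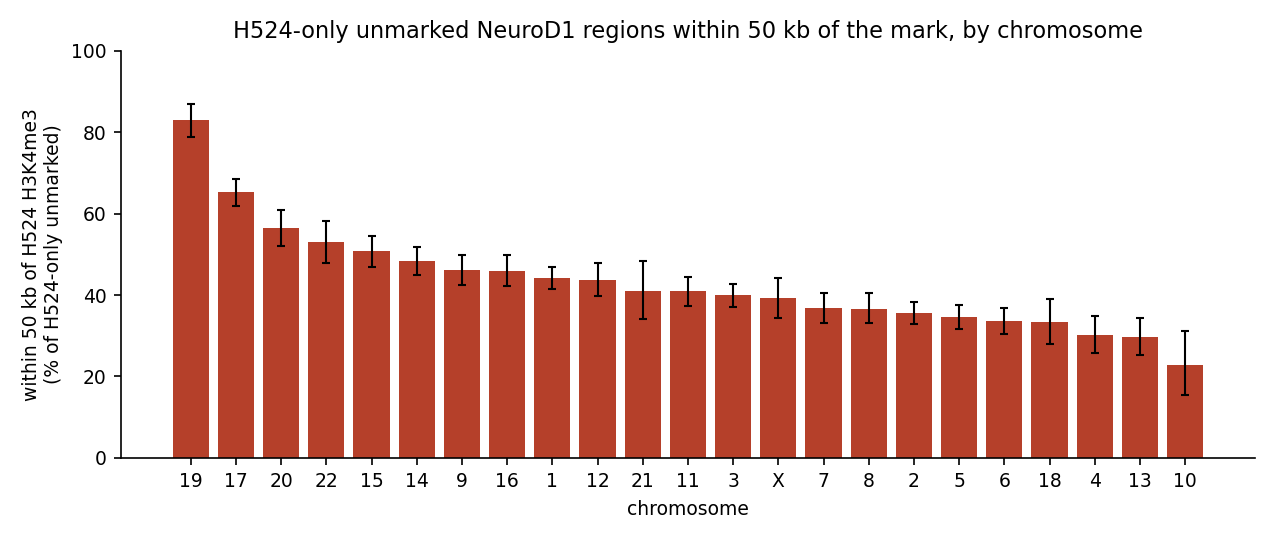
Promoter-near sites as a share of all unmarked NeuroD1 regions of H524 alone on each chromosome, in falling order, with exact 95% intervals for counting error as bars. Chromosome 19 is highest at 83.1% and chromosome 10 lowest at 22.7%.

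What H82 showed around the sites also varied between chromosomes. The nearest H524 mark was found in H82 for 67.9% (64.0 to 71.7) of the promoter-near sites of chromosome 1 and 65.7% (59.7 to 71.3) of those of chromosome 12, against 28.6% (22.4 to 35.4) on chromosome 22 and 34.9% (26.6 to 43.9) on chromosome 4. Chromosome 19 had an H82 NeuroD1 region within 50 kb of 50% (44.1 to 55.9) of its sites, chromosome 17 of 43.6% (39.3 to 47.9) and chromosome 1 of 41.3% (37.2 to 45.4). The share was 7.07% (2.89 to 14.0) for chromosome 18 and 8.73% (4.44 to 15.1) for chromosome 4. Close neighbours were most frequent on chromosome 17, where 66.7% (62.5 to 70.7) of sites had a further H524 NeuroD1 region within the stitching distance, and least on chromosome 10, with 33.3% (16.5 to 54.0) of its 27 sites.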

How the data were processed

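NeuroD1 and H3K4me3 were profiled by chromatin immunoprecipitation sequencing in H524 and H82, with 1 library per antibody and line. The submitters' processing notes name, in no stated order or role, MACS2 2.1.1 and ChIPseeker 1.18.0, the aligner Bowtie 1.1.2, Trimmomatic 0.38, Picard 1.118, R 3.5.1, bcl2fastq 1.8.4 and SAMtools 1.9, with build hg19. Settings and any use of the inputs are unknown. The deposited peak score has no stated unit and was read as a −log10 q-value, because each list starts just above 1.30 (q of 0.05). It was used for ranks and medians inside a list, for the scores given with named regions and for the score thresholds of the alternatives.

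Entries with one interval were merged, keeping the highest score, which left 20593 H524 NeuroD1, 18595 H524 H3K4me3, 3854 H82 NeuroD1 and 18208 H82 H3K4me3 regions. Overlap meant 1 shared bp. Distances ran edge to edge, with 1 bp for abutting regions, and were checked on simulated data and against bedtools 2.31.1. Coordinates are 1-based. The tools were Python 3.11.15 with scipy 1.17.1, pandas 2.3.3 and numpy 2.4.6, and figures used matplotlib 3.10.9. Reads per library are not given, so depth is unknown.

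The class, comparisons and alternatives were chosen with earlier results of these data known. Named were the 10 highest-scoring sites outside chromosome 8 and 3 on it, the 5 with most summits, the 5 marks with most sites within 50 kb and the 3 sites on each side of the limit. The 3 sites nearest to a mark, the longest runs and further marks were added after seeing values. E-box content, gene context and genes planned for naming were not analysed here, since they need hg19 sequence and annotation.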

Additional observations from a re-analysis of the deposited data

How the results depend on the processing

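The number of sites and 5 shares were recomputed under other distance limits, overlap rules, score thresholds and merging, and the distance from midpoints. No other result was recomputed. A limit of 25 kb left 4229 sites. Of these, 50.4% had a nearest mark found in H82, 26.5% a mark holding NeuroD1, 68.9% an H82 mark in reach, 19.8% H82 NeuroD1 in reach and 58.6% a close neighbour. At 100 kb the last 3 shares were 81.96%, 39.2% and 52.3%. Counting regions within 1 kb as overlapping gave 61.2%, 35.9% and 27.2% for mark in H82, mark with NeuroD1 and H82 NeuroD1. The first 2 were higher and the third lower than reported. The 1 kb allowance also applied to marks counted as found in H82 or as holding NeuroD1, so these 2 shares had a looser definition. The 110 sites within 1 kb of an H82 NeuroD1 region left the class, which lowers the third. How much of each change this makes up was not tested. With scores of at least 2 the shares for H82 mark, H82 NeuroD1 and neighbour were 73.7%, 26.4% and 50.3%. Lists kept at or above their median score left 2871 sites and, in the order first given, 48.9%, 18.0%, 68.2%, 21.2% and 41.3%. Limiting both NeuroD1 lists to the length of the shorter, chosen after seeing the data, left 1254 sites, with 50.2% for mark in H82, 6.70% for mark with NeuroD1, 73.6% for H82 mark and 24.2% for neighbour, over fewer regions to meet. Joining regions within 100 bp left the H524 NeuroD1 list at 20593 regions and all 6 results identical, so it was no check of them. Leaving out chromosome 8 left 6282 sites. From midpoints the median distance was 17.1 kb. Promoter-near minus distant sites kept its sign in 8 of 8 alternatives for marks with NeuroD1 (3.86 to 5.70 points), H82 marks (57.8 to 67.5), H82 NeuroD1 (9.40 to 18.3) and neighbours (10.4 to 15.8). For marks found in H82 it ranged from −2.73 to 2.81 and was positive in 4. The 8 alternatives include the joining within 100 bp, which only repeats the reported values. E-box content and its alternatives were not run. No paired analysis was possible because each antibody and line had 1 library. With no replicates and unknown depth, the lists do not separate absent from undetected sites.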
